A study of Mus musculus with 8 samples.

Results

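Expression of 8 genes of cholesterol synthesis, Hmgcs1, Mvd, Fdps, Fdft1, Sqle, Lss, Cyp51 and Dhcr7, was compared between liver label-retaining cells (LLRCs) and non-label-retaining (non-LRC) biliary cells. The genes were chosen by name, as enzymes of the route from acetyl-CoA to cholesterol, with earlier results of these data known. They are 8 of the 46603 genes in the count table, and all 8 were among the 13605 genes with enough reads to be tested. RNA was sequenced from 8 libraries, an EGFP+ (LLRC) and an EGFP- (non-LRC) library from each of 4 mice, JV602, JV621, JV624 and JV6314. Every mouse was R26rtTA het/H2B-EGFP het. In these mice a doxycycline-dependent transactivator made from the Rosa26 locus, which is active in most cell types, switches on a histone 2B-EGFP fusion, and the green label is thinned out with each cell division. All 4 mice got doxycycline from birth to postnatal day 5 and their livers were taken at 8 weeks of age, so both groups share genotype, treatment and age and differ in how much label was left. Live EpCAM+CD45- cells were sorted, and the study's mice were of mixed C57BL/6 and CBA background. Blood-forming cells of such mice make the fusion without doxycycline, and the sort gated on CD45.

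Cholesterol is made from acetyl-CoA through mevalonate, isoprenoid diphosphates, squalene and lanosterol. Most genes of the route are activated by SREBP-2, a transcription factor that is held in the endoplasmic reticulum by SCAP and INSIG proteins when sterols are plentiful, and is cut free and enters the nucleus when they are scarce. The same factor raises the uptake of lipoproteins, while LXR receptors raise the export of sterols. In the liver, hepatocytes make much of the body's cholesterol and turn it into bile acids, and bile duct cells are the cells that line the ducts carrying that bile.

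Depth ran from 7860021 to 9851819 counts for LLRCs and from 4670132 to 8056103 counts for non-LRC cells. Of the tested genes, 15.6% had 0 counts in the non-LRC library of JV621 and 7.75% in that of JV6314, against 0.345% to 1.57% in the other 6 libraries. Of the defining markers of bile duct cells, Epcam was read at 432 to 766 CPM (counts scaled by TMM to a common library size) and Krt19 at 89.1 to 172 CPM. The 17 cholangiocyte markers summed to 115118 to 222088 CPM for LLRCs and 66620 to 163081 CPM for non-LRC cells, of which Spp1 alone made up 111910 to 218645 CPM and 64249 to 159148 CPM. Of the 17, 2 had an unadjusted p below 0.05, Aqp1 with a log2 fold change of -4.07 (adjusted p = 0.0809 by edgeR) and Cftr with 1.43 (adjusted p = 0.688). These 2 were named after their values were seen. Markers of other cells were also read, with 12 to 14 of 14 endothelial, 7 to 10 of 10 stellate cell or fibroblast, 15 of 15 hepatocyte, 3 to 9 of 11 leukocyte and 3 to 10 of 10 pancreatic acinar markers above 0 in a library. The summed level of 14 endothelial markers was 29.6 to 74.5 CPM in LLRC and 201 to 1087 CPM in non-LRC libraries, and that of 10 stellate cell or fibroblast markers was 272 to 871 and 684 to 2728 CPM. The sum of 15 hepatocyte markers was 3181 to 3489 CPM in LLRC and 2286 to 8256 CPM in non-LRC libraries. Alb alone made up 2091 to 2542 CPM and 1506 to 2786 CPM of these, with a log2 fold change of 0.01. All others but Apob (0.74) were negative, down to -2.79 for Apoa2, and none had an adjusted p below 0.05. Apoa1, Apoa2, Serpina1a, Cps1, Cyp2e1, Tat, Ass1 and Pck1 had an unadjusted p below 0.05 by edgeR. They were lower in LLRCs, as were 3.56% of all genes at that threshold, and were named after their values were seen. The sum of 11 leukocyte markers was 15.9 to 38.2 CPM over the 8 libraries, and Ptprc, the gene of CD45, was covered by 5, 34, 14 and 59 reads for LLRCs (0.485 to 6.55 CPM) and by 0, 0, 0 and 7 for non-LRC cells of JV602, JV621, JV624 and JV6314. Ptprc was higher for LLRCs in 4 of 4 mice, as were 7.75% of all genes (log2 fold change 3.27, unadjusted p = 0.0468 and adjusted p = 0.957 by edgeR's quasi-likelihood test). The other leukocyte markers did not follow it. Itgam was lower in LLRCs in 4 of 4 mice (log2 fold change -0.36) and Csf1r gave -0.16. Adgre1, Clec4f, Laptm5 and Coro1a had reads in non-LRC libraries only. Pancreatic acinar markers summed to 1980.5 CPM in the non-LRC library of JV6314 and to at most 23.5 CPM elsewhere. In such bulk samples a lower share of a cell type and less RNA per cell cannot be told apart.

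Upstream sequences are shown for Hmgcs1, the only 1 of 5 members with a matched sequence that held the sterol response element searched for, and for Mvd, the only member whose level was higher for LLRCs in all 4 mice. Both are the 250 bases before a transcription start in RefSeq (GRCm38.p6), written 5′ to 3′ on the strand of the gene. Capitals mark the sterol response element TCACNCCAC, the NF-Y box CCAAT and the GC box GGGCGG, each searched on both strands, so that CCAAT read on the other strand appears as ATTGG and GGGCGG as CCGCCC.
Hmgcs1, chr13:119690101-119690350, plus strand: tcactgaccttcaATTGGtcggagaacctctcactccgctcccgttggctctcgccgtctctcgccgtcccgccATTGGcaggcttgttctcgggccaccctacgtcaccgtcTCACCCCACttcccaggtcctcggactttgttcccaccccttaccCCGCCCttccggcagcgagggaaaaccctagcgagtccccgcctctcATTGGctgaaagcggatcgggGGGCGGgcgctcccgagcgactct
Mvd, chr8:122443423-122443672, minus strand: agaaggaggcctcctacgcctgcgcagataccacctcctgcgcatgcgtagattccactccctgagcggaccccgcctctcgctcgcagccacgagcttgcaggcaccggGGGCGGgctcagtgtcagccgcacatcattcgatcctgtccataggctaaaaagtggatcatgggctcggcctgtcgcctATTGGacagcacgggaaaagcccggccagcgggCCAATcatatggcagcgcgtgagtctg
In Hmgcs1 the sterol response element lay between -137 and -129 from the start, and 3 NF-Y boxes and 2 GC boxes were found. In Mvd 2 NF-Y boxes lay between -60 and -56 and between -27 and -23, with 1 GC box between -140 and -135.

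RefSeq sequences were matched for 5 of the 8 members, namely Hmgcs1, Mvd, Lss, Cyp51 and Dhcr7, with 7 start sites among them. The sterol response element was found in 1 of these 7 sequences, in 0 of 12 of other enzymes of the route, and in 1.05% of the 32851 sequences of the same length. The NF-Y box was found in 5 of the 7 sequences of members and 10 of 12 of other enzymes, against 33.8% of all sequences. The GC box was found in 6 of 7 and 10 of 12, against 32.7%. Each of the 5 genes had both boxes in at least 1 of its sequences. None of the 20 matches in the members overlapped another. These counts describe letters in the sequence and do not show that a factor binds there.

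A difference between LLRCs and non-LRC cells was detected for none of the 8 genes at this depth and spread. The fitted log2 fold changes, LLRC over non-LRC, lay between -0.48 for Dhcr7 and 0.35 for Mvd, with 4 above and 4 below 0, where 48.9% of all genes were above 0. Their median was -0.04, and that of all genes tested was -0.01. With the mouse as a block these medians were 0.22 and 0.14, with 0.55 for Mvd and 0.56 for Lss, and no member passed the test. In each of the 8 genes the levels of the LLRC libraries overlapped those of the non-LRC libraries, and the spread between mice was larger in non-LRC cells. In edgeR's quasi-likelihood test 0 of 8 members had an adjusted p below 0.05, where the share over all genes was 0% (0 of 13605), and the adjusted p was 0.9999 for each of the 8. At an unadjusted p below 0.05 the count was again 0 of 8, against 5.16% of all genes (702), with 1.6% higher and 3.56% lower in LLRCs. Over all genes, edgeR's exact test called 159, DESeq2's Wald test 221, and limma voom with sample weights 0, and none of these called a member.

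**Figure D1:**
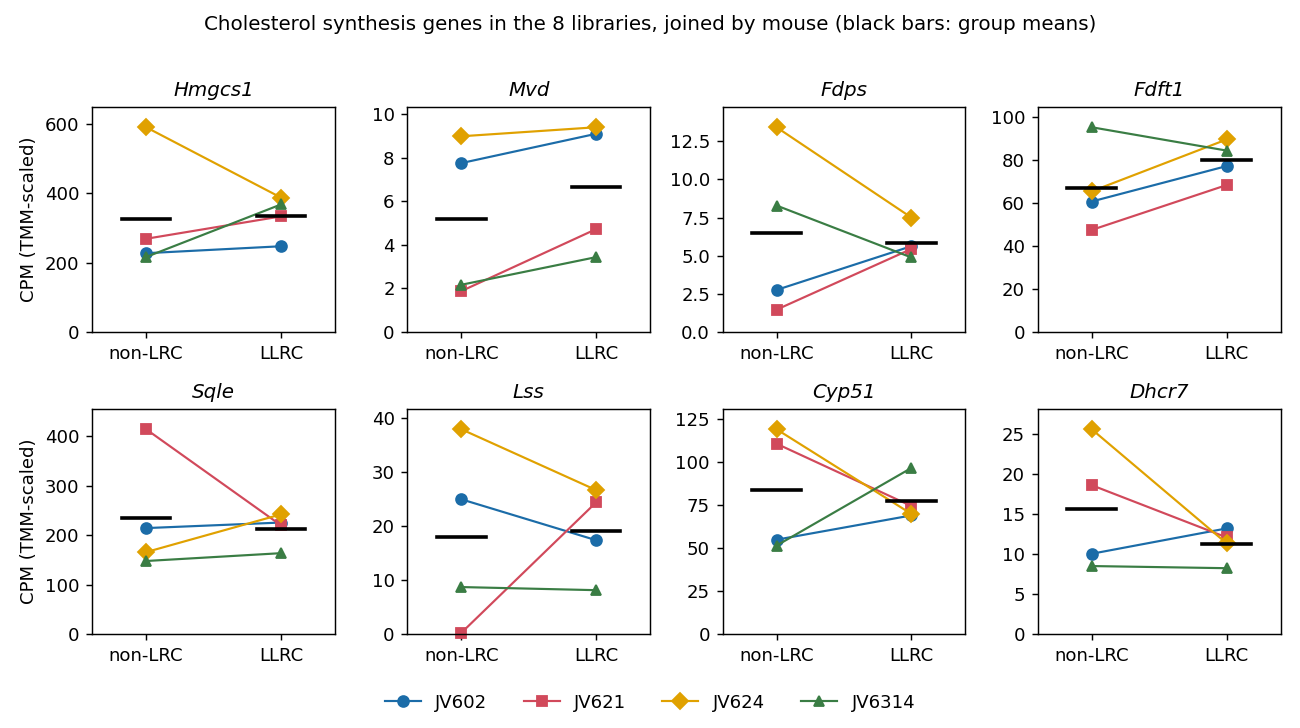
Normalised read counts (CPM, scaled by TMM, each axis from 0) of the 8 genes in the non-LRC and LLRC library of each mouse, with a line joining the libraries of a mouse and a black bar at the group mean. The lines run in both directions in all panels but that of Mvd, and the non-LRC points lie farther apart than the LLRC points, as for Hmgcs1 between 216 and 590.3 CPM against 247 to 388 CPM.

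The first enzymes of the route act up to farnesyl diphosphate. Hmgcs1 (chromosome 13, 119690379 to 119708260 of GRCm38, plus strand) encodes the cytosolic HMG-CoA synthase, which makes the precursor of mevalonate. LLRCs held 247, 333, 388 and 368 CPM of it, in the order JV602, JV621, JV624 and JV6314 that is kept from here on. Non-LRC cells of the same mice held 227, 269, 590.3 and 216 CPM. The LLRC library was the higher in 3 mice and the lower in JV624, whose non-LRC library stood above all others. The mean of LLRCs was 334 ± 62.0 CPM and that of non-LRC cells 326 ± 178 CPM (SD, n = 4). This gave a log2 fold change of 0.04 (standard error 0.37, 95% interval -0.79 to 0.87), which does not exceed the spread between mice. It was 0.49 without the non-LRC library of JV624. On the linear scale the interval is 0.577-fold to 1.82-fold. Another gene covers 12.1% of its exon bases, and 11.6% of its stretches of 50 bases occur in other genes.

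Mvd (chromosome 8, 122433601 to 122443422, minus strand) encodes mevalonate diphosphate decarboxylase, which forms isopentenyl diphosphate, the isoprene unit. LLRCs held 9.11, 4.73, 9.41 and 3.44 CPM of it, and non-LRC cells 7.76, 1.88, 8.997 and 2.17 CPM. The LLRC library was the higher in each of the 4 mice, which held for 7.75% of all genes tested, and JV621 and JV6314 were low in both groups. The log2 fold change was 0.35 (standard error 0.67, 95% interval -1.16 to 1.86). The non-LRC libraries of JV621 and JV6314 held 9 and 11 counts of the gene.

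Fdps (chromosome 3, 89093588 to 89101959, minus strand) encodes farnesyl diphosphate synthase, whose product is shared by sterols, ubiquinone, dolichol and prenylated proteins. Its levels were 5.62, 5.44, 7.50 and 4.89 CPM for LLRCs and 2.76, 1.46, 13.4 and 8.29 CPM for non-LRC cells. The LLRC values lay within the range of the non-LRC values, with JV602 and JV621 higher and JV624 and JV6314 lower in LLRCs. The log2 fold change was -0.15 (standard error 0.69), and it was 0.29 with the mouse as a block and 0.49 without the non-LRC library of JV624. Of its exon bases 26.7% overlap another gene, and counting without strand cannot assign reads there.

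Squalene is made and oxidised by the next enzymes. Fdft1 (chromosome 14, 63145150 to 63179578, minus strand) encodes squalene synthase, the first enzyme that serves sterols alone. The LLRC libraries held 77.1, 68.2, 89.4 and 84.3 CPM and the non-LRC libraries 60.6, 47.4, 65.3 and 95.1 CPM. LLRCs were the higher in JV602, JV621 and JV624 and the lower in JV6314. Fdft1 had the smallest error of the 8, its log2 fold change being 0.25 (standard error 0.29, 95% interval -0.40 to 0.89), or 0.760-fold to 1.86-fold. It kept a positive sign in all 21 alternatives run, between 0.13 and 0.47, with adjusted p between 0.761 and 1. Exons of Fdft1 overlap another gene in 18.3% of their bases, and 26.5% of its stretches of 50 bases also occur in 2 other genes.

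Sqle (chromosome 15, 59315077 to 59331192, plus strand) encodes squalene epoxidase, an oxygen-dependent enzyme held to be a control point of the route. Of this gene LLRCs held 225, 219.8, 242 and 163 CPM, and non-LRC cells 214, 414, 166 and 148 CPM. LLRCs were the higher in 3 mice, but the non-LRC library of JV621 exceeded all 7 other libraries. The log2 fold change of -0.15 (standard error 0.36) became 0.28 without that library.

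Lss (chromosome 10, 76531588 to 76557138, plus strand) encodes lanosterol synthase, which closes the sterol rings. Its levels were 17.4, 24.4, 26.6 and 8.10 CPM for LLRCs, and 24.9, 0.209, 37.9 and 8.68 CPM for non-LRC cells. The non-LRC library of JV621 held 1 count of the gene, and the LLRC library of that mouse held 206. The ratio of LLRC to non-LRC in JV621 was 117, with an exact 95% interval of 20.7 to 4635 that covers counting error only. In the other 3 mice LLRCs were the lower, so that the direction in JV621 was opposite to theirs. The fitted log2 fold change was 0.09 (standard error 0.98, 95% interval -2.12 to 2.29), the widest interval of the 8, and it was -0.45 without the libraries of JV621. The non-LRC library of JV621 had 0 counts for 15.6% of the tested genes, and the part of this in the value of Lss was not tested.

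The last members act on lanosterol and its products. Cyp51 (chromosome 5, 4081145 to 4104746, minus strand) encodes the lanosterol demethylase, a cytochrome P450 enzyme found in nearly all eukaryotes. For LLRCs the levels were 68.8, 74.3, 69.7 and 96.4 CPM, and for non-LRC cells 54.7, 110.5, 119 and 51.3 CPM. LLRCs were the higher in JV602 and JV6314 and the lower in JV621 and JV624, and all 4 LLRC values lay between the lowest and the highest non-LRC value. The log2 fold change was -0.12 (standard error 0.35, 95% interval -0.90 to 0.67), and 0.092 without the non-LRC library of JV624.

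Dhcr7 (chromosome 7, 143823145 to 143848410, plus strand) encodes the reductase of the last step to cholesterol, which also sets how much precursor is left for vitamin D. LLRCs held 13.2, 12.1, 11.3 and 8.22 CPM of it, against 10.02, 18.6, 25.6 and 8.48 CPM for non-LRC cells. The LLRC library was the lower in 3 mice and the higher in JV602. The log2 fold change of -0.48 (standard error 0.46, 95% interval -1.51 to 0.54) was the most negative of the 8, and it kept its sign in all 21 alternatives, between -0.68 and -0.15, with adjusted p between 0.763 and 1.

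**Figure D2:**
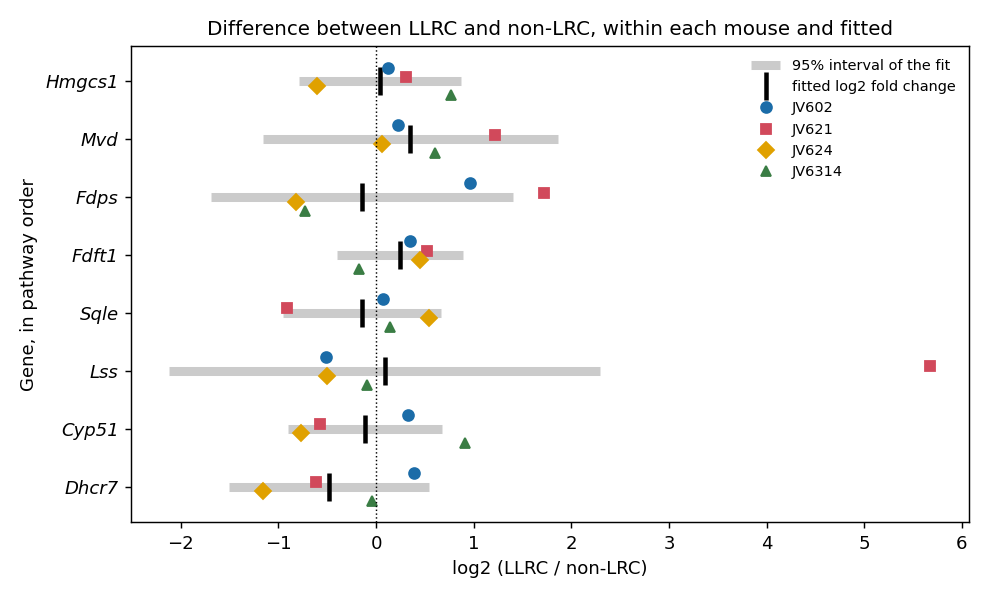
The log2 ratio of LLRC to non-LRC for each gene, in pathway order, within each mouse (symbols, CPM with a prior count of 2) and as fitted over the 8 libraries (black tick, with the 95% interval in grey). Each grey interval spans 0, and the symbol at 5.68 is Lss in JV621, where the non-LRC library held 1 count.

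The direction differed between mice. In JV602, 7 of the 8 genes were higher in LLRCs, where 50.9% of all tested genes were. In JV621 it was 5 of 8 against 59.6%, in JV624 3 of 8 against 48.7%, and in JV6314 4 of 8 against 53.4%. The median log2 ratio of the members (CPM with a prior count of 2) was 0.28, 0.42, -0.56 and 0.05 in the same order of mice. The same median over all genes tested was 0.01, 0.32, -0.03 and 0.10. The members' median was thus negative in JV624 and positive in the other mice.

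The non-LRC libraries set both ends of the range for most members. The lowest of the 8 libraries was the non-LRC library of JV621 for Mvd, Fdps, Fdft1 and Lss, and this library was the lowest for 34.1% of all genes. The highest was the non-LRC library of JV624 for Hmgcs1, Fdps, Lss, Cyp51 and Dhcr7, 5 of 8 members against 17.4% of all genes. That library also held the highest sums of hepatocyte markers (8256 CPM, against 2286 to 5902 CPM elsewhere) and of stellate cell or fibroblast markers (2728 CPM), and their part in the members' levels was not tested. Without it the median log2 fold change of the members was 0.36 rather than -0.04. The SD of log2 CPM over the mice was larger in non-LRC cells than in LLRCs for 8 of 8 members and for 83.6% of all genes. For Fdps it was 1.36 against 0.25, and for Fdft1 0.41 against 0.17. The summed level of the 8 genes was 664, 742, 843 and 736 CPM for LLRCs and 602.1, 863, 1026 and 538 CPM for non-LRC cells, so the LLRC sums all lay inside the range of the non-LRC sums.

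Levels were set beside each other per kb of exon. In LLRCs the order of the mean level per kb was Hmgcs1 with 72.7 ± 13.5, Sqle with 38.3 ± 6.15, Fdft1 with 18.9 ± 2.17 and Cyp51 with 17.5 ± 2.93 CPM per kb (SD, n = 4). The other 4 genes were lower, with Mvd at 3.59 ± 1.63, Dhcr7 at 1.92 ± 0.37, Lss at 1.77 ± 0.77 and Fdps at 1.39 ± 0.27 CPM per kb. Between neighbours in this order, Sqle exceeded Fdft1 and Cyp51 exceeded Mvd in 8 of 8 libraries. Hmgcs1 exceeded Sqle in 7 of 8, while Fdft1 and Cyp51 changed places in 4 of 8. The ranges of Mvd, Dhcr7, Lss and Fdps overlapped from neighbour to neighbour. Their order also turned with the length used. Per kb of the principal transcript alone it was Fdps with 4.24, Lss with 4.09, Dhcr7 with 3.98 and Mvd with 3.80 CPM per kb in LLRCs, while the order of the 4 higher genes stayed as it was.

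**Figure D3:**
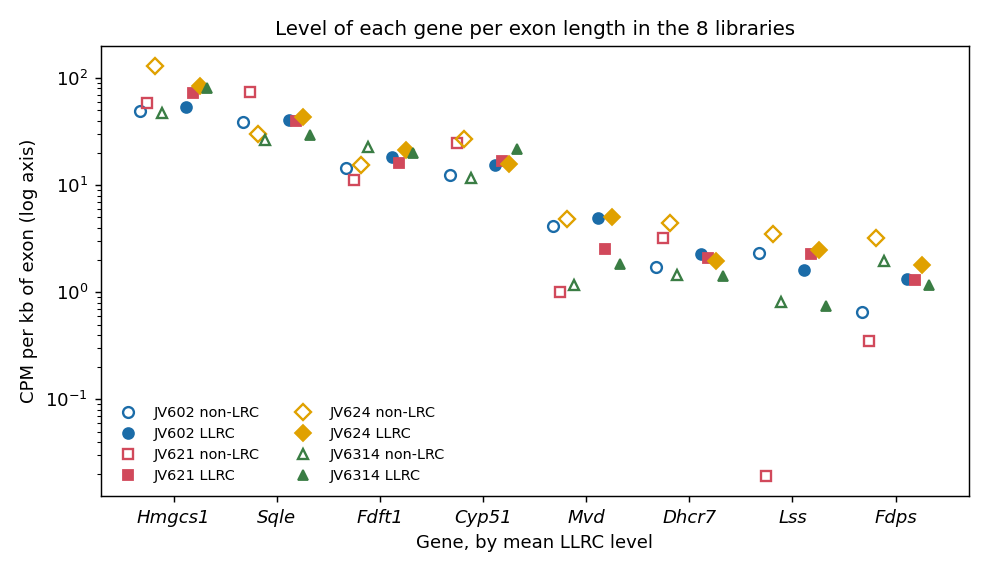
CPM per kb of exon (log axis) of the 8 genes, ordered by their mean in LLRCs, with open symbols for non-LRC and filled symbols for LLRC libraries and a colour and shape for each mouse. Hmgcs1, Sqle, Fdft1 and Cyp51 lie at or above 11.2 CPM per kb in all libraries and the other 4 genes at or below 5.06, and the lowest point is Lss in the non-LRC library of JV621.

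The mean pattern of the 8 genes over the libraries (log2 CPM, each gene centred on its own mean) ran from -0.80 in the non-LRC library of JV621 to 0.73 in that of JV624. Hmgcs1 was the member closest to this mean, with a root mean square difference of 0.35 on the log2 scale over the 8 libraries, and Lss the farthest, with 1.53. Of the genes that are not members, Babam1, Ndufs1, Gm47283, Idh3b and Chid1 came nearest to it, with differences between 0.16 and 0.18. Each was nearer to the mean than any of the 8 members was. As these genes were picked as the nearest of all genes tested, that follows largely from the choice.

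The other enzymes of the route did not pass the test either. Of 13 genes, 3 had a positive and 10 a negative log2 fold change, with a median of -0.10, and 0 had an unadjusted p below 0.05. Before farnesyl diphosphate, the values were -0.06 (standard error 0.34) for Acat2, the thiolase that opens the route, -0.10 (0.98) for the mevalonate kinase Mvk, -0.34 (0.35) for Pmvk, the next kinase, and -0.35 (0.41) for Idi1, the isopentenyl diphosphate isomerase. After lanosterol they were 0.25 (0.31) for Msmo1 and -0.32 (0.44) for Nsdhl, which remove methyl groups, -0.52 (0.38) for Hsd17b7, -0.08 (0.31) for Lbr and -0.31 (0.54) for Tm7sf2, which are reductases, -0.10 (0.50) for the isomerase Ebp and 0.14 (0.35) for the desaturase Sc5d. Pmvk and Hsd17b7 were lower in LLRCs in 4 of 4 mice, as were 5.53% of all genes.

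The genes that sense sterols and activate SREBP split evenly, with 5 positive and 5 negative values, a median of 0.04 and 0 of 10 with an unadjusted p below 0.05. The log2 fold change was -0.15 (standard error 0.48) for Srebf1 and -0.42 (0.48) for Srebf2, which encode the SREBP factors, and -0.48 (0.50) for their escort Scap. It was 0.36 (0.64) for Insig1 and -0.30 (0.25) for Insig2, which hold SCAP back. It was 0.30 (0.50) for Mbtps1 and 0.25 (1.03) for Mbtps2, the proteases that cut SREBP. For Erlin1, Erlin2 and Ubxn4, which act in the turnover of proteins of the endoplasmic reticulum, it was 0.29 (0.44), 0.19 (0.39) and -0.12 (0.26).

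**Figure D4:**
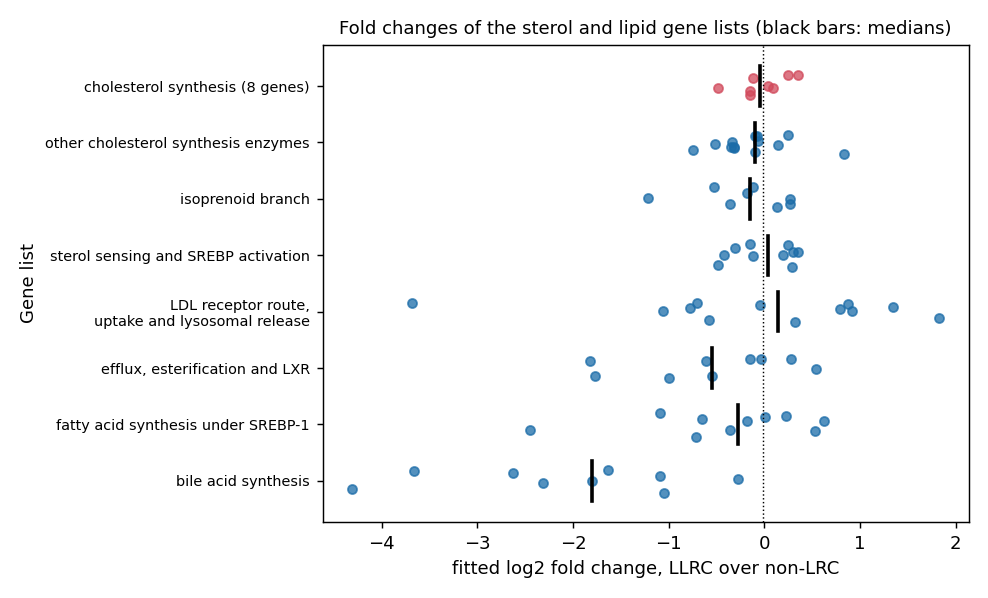
Fitted log2 fold changes (LLRC over non-LRC) of the tested genes of 8 lists, 1 point per gene, with the list median as a black bar and the median of all genes as a dotted line. The 8 cholesterol synthesis genes (red) lie between -0.48 and 0.35, and the bile acid synthesis genes between -4.31 and -0.28.

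In the lists around the route, 0 genes passed the adjusted threshold, and those with an unadjusted p below 0.05 are given here. Among 12 genes of lipoprotein uptake and lysosomal release, 6 were positive and 6 negative, from -3.68 for Mylip to 1.83 for Vldlr, a receptor of very low density lipoprotein, with a median of 0.14, which was -0.38 with counts thinned to the smallest library and -0.077 without the non-LRC libraries of JV621 and JV6314. Vldlr had 0 counts in the non-LRC libraries of JV621 and JV6314. Stard4, a carrier that moves cholesterol between membranes, was read at 72.7, 57.0, 126 and 68.1 CPM for LLRCs and at 28.2, 45.9, 54.3 and 48.1 CPM for non-LRC cells. Its groups did not overlap, which held for 4.06% of all genes, and its log2 fold change was 0.88 (standard error 0.35, unadjusted p = 0.0329 and adjusted p = 0.893 in edgeR's quasi-likelihood test). Mylip, a ubiquitin ligase that marks lipoprotein receptors for breakdown, stood at 1.45, 1.89, 0.294 and 6.33 CPM for LLRCs and at 4.76, 86.0, 22.9 and 15.6 CPM for non-LRC cells. Its groups overlapped, although it was lower in LLRCs of each mouse, and its log2 fold change was -3.68 (standard error 1.077), with a range of -4.69 to -2.40 over the 21 alternatives. Its adjusted p was 0.527 by edgeR's quasi-likelihood test and 0.0126 by DESeq2, the lowest over the 21 alternatives, which reached 0.9999. Its highest level was in the non-LRC library of JV621, where the endothelial sum was highest (1087 CPM), and its lowest non-LRC level in that of JV602, where this sum was 201 CPM. Between JV624 and JV6314 the order differed, with 22.9 and 15.6 CPM of Mylip beside sums of 504 and 551 CPM. The part of endothelial RNA was not tested.

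Of 9 tested genes of efflux, esterification and LXR (11 listed), 7 were negative, with a median of -0.55. They ran from -1.82 for Abca1 to 0.54 for Rora, a nuclear receptor. Abca1 and Abcg1, exporters of cholesterol that LXR activates, gave -1.82 (standard error 0.75) and -1.77 (0.69) on the log2 scale, with adjusted p of 0.915 and 0.863 by edgeR. Over the 21 alternatives these values ran from -2.19 to -0.42 and from -2.11 to -0.59. Abca1 was lower in LLRCs in 3 mice and higher in JV624, at 74.6 against 27.1 CPM. It was read at 449 CPM in the non-LRC library of JV621, where the endothelial sum was highest at 1087 CPM, and its lowest non-LRC level was in JV624, where that sum was 504 CPM. Abcg1 was read at 96.3 CPM in the non-LRC library of JV6314. The part of other cell types in these values was not tested. The median of this list was -0.0645 with the mouse as a block, -0.24 with limma voom, -0.32 with a filter at 1 CPM and -0.20 without the libraries of JV621.

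Of 10 tested fatty acid synthesis genes (11 listed), 6 were negative, with a median of -0.27, from -2.45 for Scd1 to 0.62 for Acaca, which encodes an acetyl-CoA carboxylase. Scd1, the stearoyl-CoA desaturase, stood at 19.6, 20.3, 49.9 and 39.9 CPM for LLRCs and at 59.7, 47.4, 322 and 280.0 CPM for non-LRC cells. It was lower in LLRCs in 4 of 4 mice, with overlapping groups, and gave -2.45 (standard error 0.69) on the log2 scale with an adjusted p of 0.461 by edgeR's quasi-likelihood test. DESeq2's adjusted p was 0.0229, that of edgeR's exact test 0.0484, and the highest over the 21 alternatives 0.9999. The highest Scd1 levels were in the 2 libraries with the highest hepatocyte sums, 8256 and 5902 CPM. In JV602 and JV621 the hepatocyte sum was lower in non-LRC cells (3206 and 2286 CPM) than in LLRCs (3489 and 3410 CPM), while Scd1 was higher. Most of that sum was Alb, and the markers of the list differed in direction. In those mice Cyp2e1 was higher in non-LRC cells (31.7 and 59.9 against 17.1 and 14.8 CPM). Apob was lower (28.6 and 44.5 against 55.1 and 73.6 CPM). The part of hepatocyte RNA was not tested.

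All 9 bile acid synthesis genes had a negative fold change, with a median of -1.81, the highest being -0.28 for Hsd3b7. Of the exon bases of Hsd3b7, 99.2% lie in 2 other genes, so its value is uncertain. The median was -0.95 with the mouse as a block, -1.08 with limma voom and -0.79 without the non-LRC library of JV624. Within mice, however, 9 of 9 were higher in LLRCs in JV621 and 0 of 9 in JV624 and in JV6314. In the non-LRC library of JV621 only 4 of the 9 were read at all, and 59.6% of all genes were higher in LLRCs of that mouse. Cyp7a1, the rate-limiting enzyme of bile acid synthesis, was covered by 8, 14, 2 and 0 counts for LLRCs and by 157, 0, 141 and 69 for non-LRC cells (log2 fold change -4.31, standard error 1.47, adjusted p of 0.728 by edgeR). Cyp8b1, which directs synthesis to cholic acid, was covered by 12, 7, 9 and 13 against 1, 1, 206 and 143 counts (log2 fold change -3.66, standard error 1.46, adjusted p of 0.893 by edgeR), and gave -1.54 with the block and -1.01 with limma voom. The summed level of the 9 genes was 85.3 to 124 CPM for LLRCs and 144, 28.8, 529 and 278 CPM for non-LRC cells, in the order of mice used above. The hepatocyte sums of the same non-LRC libraries were 3206, 2286, 8256 and 5902 CPM, in the same order of rank. This order was not shared by LLRCs, where the bile acid sum was highest in JV624 (124 CPM) and the hepatocyte sum lowest there (3181 CPM). The part of hepatocyte RNA was not tested. The 8 genes of the isoprenoid branch, which leads to prenylated proteins, ubiquinone and dolichol, had a median of -0.15. They ran from -1.22 (standard error 0.62) for Fntb, a subunit of farnesyltransferase, to 0.27 (0.84) for Pdss1, which makes the side chain of ubiquinone, and 0 had an unadjusted p below 0.05.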

How the data were processed

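RNA of cells sorted as EGFP+ or EGFP- was sequenced on an Illumina instrument in 8 libraries from 4 mice. The authors counted reads per gene with HTSeq 0.5.3p9 (union mode, without strand, on exons of Ensembl genes of GRCm38.p4), and the counts were deposited without normalization. The aligner is not given in the sources used here. A second deposited table holds the fold changes, abundances and p-values of the authors' own edgeR comparison and was not used. From the counts, 13605 of 46603 genes passed edgeR's filterByExpr. They were scaled by TMM and tested with the quasi-likelihood test of edgeR 4.0.16 (R 4.3.3; defaults of glmQLFit), with the group as the only term, the Benjamini-Hochberg adjustment over all genes tested and a threshold of 0.05. CPM are TMM-scaled, and log2 CPM and within-mouse ratios use a prior count of 2. The scripts were tested on simulated data. With a 4-fold change, the quasi-likelihood test recovered 194 of 200 changed genes at a low dispersion of 0.1. At the gene-wise dispersion of these libraries it recovered 3 of 200 with a 4-fold and 93 of 200 with an 8-fold change. The lack of a call therefore does not show equal levels. Gene symbols were matched for 46005 identifiers, and coordinates and exon lengths were taken from GENCODE M21.

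The members and gene lists were chosen with earlier results of these data known. Named were all 8 members, the genes of the lists of other enzymes and of sterol sensing, the highest and lowest gene of every other list with any at an unadjusted p below 0.05, and the 5 genes nearest to the members' mean pattern. Some listed genes are not reported here by name, but count in the numbers given. The 2 libraries of a mouse come from the same animal, so they are paired by design. Deviations of a mouse's libraries from the group means correlated at 0.096, 0.074, 0.003 and 0.171 across genes for JV602, JV621, JV624 and JV6314. A floor of 3 counts equals 0.291 to 0.626 CPM, which covers counting error only. Alternatives were other scalings, filters and tests (DESeq2 1.42.0, limma 3.58.1), the mouse as a block, thinned counts and libraries left out.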

Additional observations from a re-analysis of the deposited data

Results flagged for a closer look

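Each member was checked for a library far from the others of its group, in 16 groups of 4 libraries, where chance flags about 1 in 20. This held for 1 of them. Hmgcs1 stood at 590.3 CPM in the non-LRC library of JV624, and the next highest non-LRC library was at 269 CPM, a gap of 0.860 of the group's range. Without that library the log2 fold change of Hmgcs1 was 0.49 rather than 0.04.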

How the results depend on the processing

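Over the 21 alternatives, of which 1 was chosen after seeing the data, 0 of the 8 members had an adjusted or an unadjusted p below 0.05, and the members' median log2 fold change lay between -0.30 and 0.36, within the spread of the within-mouse medians. The number of genes called was 0 as reported, 11 without a filter on low counts, 72 with the newer quasi-likelihood dispersion, 159 in edgeR's exact test, 221 in DESeq2, 1 without the non-LRC libraries of JV621 and JV6314 (the added setting), and 0 to 6 with each library left out, the 6 being without the non-LRC library of JV602. Signs turned for Hmgcs1, Mvd, Fdps, Sqle, Lss and Cyp51, and the cause was not tested. With library size only, the log2 fold change was -0.13 for Hmgcs1 and -0.12 for Lss. With limma voom it was -0.049 for Mvd, 0.087 for Fdps, 0.16 for Sqle, -0.0097 for Lss and 0.056 for Cyp51. With the mouse as a block, so that libraries were paired, it was 0.29 for Fdps, no call changed, and the median of all genes moved from -0.01 to 0.14. With thinned counts it was 0.0265 for Fdps. Without both libraries of JV621 it was -0.037 for Hmgcs1, 0.26 for Sqle, -0.45 for Lss and 0.070 for Cyp51. In the added setting, which leaves the LLRC libraries of 2 mice without a partner, it was -0.28 for Hmgcs1, -0.32 for Mvd, 0.17 for Sqle and -0.70 for Lss. With each library left out it ranged from -0.11 to 0.49 for Hmgcs1, -0.46 to 0.49 for Fdps, -0.31 to 0.28 for Sqle, -0.31 to 0.75 for Lss and -0.29 to 0.092 for Cyp51. Few reads limit the values of Lss, Mvd and Fdps in the non-LRC library of JV621, with 1, 9 and 7 counts.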
